A study of Homo sapiens with 12 samples.

Results

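The genes described here are 43 members of the DNA replication and S phase machinery, selected by gene symbol from a list of known replication factors and followed through the gene count tables of 2 human melanoma cell lines. All 43 had a row among the 44700 genes in the tables, and all 43 passed the filter on low counts that left 15810 genes for testing. The study compared SK-MEL-5 cells given interferon gamma (IFN-γ) at 150 ng/mL for 24 h with untreated SK-MEL-5 cells, and MALME-3M cells given IFN-γ at 200 ng/mL for 24 h with untreated MALME-3M cells. Each of the 4 groups held 3 libraries of total RNA, 12 in all. The labels give wild type as the genotype of both lines. Treated and untreated cells of a line shared their medium, but the lines differed in medium, serum content and IFN-γ dose, so the line, its culture conditions and its dose cannot be told apart. Each line stands for a single tumour-derived culture, and nothing in the labels says that the 3 libraries of a group came from separate cultures on separate days, so each p-value covers only library-to-library spread, part or all of which could be technical.

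DNA replication starts where the origin recognition complex, CDC6 and CDT1 load the MCM helicase on DNA in G1. In S phase CDC45 and the GINS complex join the helicase, polymerase alpha with primase lays down primers, and polymerases delta and epsilon extend them behind the sliding clamp PCNA, which the RFC complex loads. Ribonucleotide reductase, thymidylate synthase and dUTPase supply the deoxynucleotides. Transcription factors of the E2F family switch many of these genes on together at the passage into S phase, so the transcripts are widely read as a sign of proliferation. IFN-γ is known to slow the growth of many tumour cells.

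Promoter windows of 300 bases, 250 before and 50 from the transcription start onward, were available from RefSeq (GRCh38.p14) for 37 members, in 50 windows. Strings were sought in 280 bases of each window, 250 before the start and 30 from it onward, in members and all genes alike. One of the E2F letter strings TTTCCCGC, TTTGGCGC, TTTCGCGC or TTTGCCGC, read on both strands, stood in 21 of these 50 windows (42%), against 1103 of the 35116 windows of all genes (3.14%). CCAAT stood in 56% of the member windows and 33.6% of all windows. For the strings of interferon-responsive elements the shares were 6% of member windows and 7.3% of all windows for TTCNNNGAA, and 0% of member windows and 3.39% of all windows for GAAA followed by GAAA after any 2 bases, the core of the interferon-stimulated response element. TTTGAA, the string found in promoters of many G2 and M phase genes, stood in 4% of member windows and 14.5% of all windows. Some neighbouring windows of a gene with several starts overlap, and strings may overlap each other. The 280 bases below, 250 before and 30 from the start onward, are printed for the 5 members that fell after IFN-γ and had a window (TYMS, RRM1, RPA1, LIG1 and POLE2; MCM5 and RPA3 had none), and for MCM6, not called, as an example of 4 E2F strings in overlapping pairs. Capitals mark the E2F strings, of which TYMS, POLE2 and LIG1 had 1 each and RRM1 and RPA1 none.
TYMS, chr18:657403-657682 (+ strand): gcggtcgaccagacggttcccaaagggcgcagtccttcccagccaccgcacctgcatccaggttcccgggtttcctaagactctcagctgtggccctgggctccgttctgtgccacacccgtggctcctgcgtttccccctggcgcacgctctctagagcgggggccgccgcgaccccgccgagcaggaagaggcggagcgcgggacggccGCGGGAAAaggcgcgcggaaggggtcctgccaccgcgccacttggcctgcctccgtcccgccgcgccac
RRM1, chr11:4094435-4094714 (+ strand): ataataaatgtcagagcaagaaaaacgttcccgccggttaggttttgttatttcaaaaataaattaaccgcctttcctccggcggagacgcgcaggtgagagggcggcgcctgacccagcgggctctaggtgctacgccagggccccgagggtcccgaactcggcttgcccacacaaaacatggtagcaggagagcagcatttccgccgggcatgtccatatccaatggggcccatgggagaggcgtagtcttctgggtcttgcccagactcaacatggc
RPA1, chr17:1829755-1830034 (+ strand): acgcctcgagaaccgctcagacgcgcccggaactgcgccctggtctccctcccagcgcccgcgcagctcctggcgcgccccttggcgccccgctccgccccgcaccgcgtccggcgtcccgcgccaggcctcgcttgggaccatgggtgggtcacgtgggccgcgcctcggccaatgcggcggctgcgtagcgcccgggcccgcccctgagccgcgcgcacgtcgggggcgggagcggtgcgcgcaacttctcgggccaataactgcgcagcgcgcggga
LIG1, chr19:48170315-48170594 (- strand): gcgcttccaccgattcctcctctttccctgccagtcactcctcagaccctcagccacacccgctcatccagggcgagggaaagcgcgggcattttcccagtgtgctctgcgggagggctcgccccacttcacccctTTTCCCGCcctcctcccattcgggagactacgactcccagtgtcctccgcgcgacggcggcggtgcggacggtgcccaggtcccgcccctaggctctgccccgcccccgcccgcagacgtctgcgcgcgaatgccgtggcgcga
POLE2, chr14:49688185-49688464 (- strand): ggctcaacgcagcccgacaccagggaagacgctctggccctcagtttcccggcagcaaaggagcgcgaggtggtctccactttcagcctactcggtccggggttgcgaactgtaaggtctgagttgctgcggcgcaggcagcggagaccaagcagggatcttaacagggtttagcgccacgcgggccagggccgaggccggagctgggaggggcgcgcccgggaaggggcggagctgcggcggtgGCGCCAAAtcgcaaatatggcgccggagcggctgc
MCM6, chr2:135876414-135876693 (- strand): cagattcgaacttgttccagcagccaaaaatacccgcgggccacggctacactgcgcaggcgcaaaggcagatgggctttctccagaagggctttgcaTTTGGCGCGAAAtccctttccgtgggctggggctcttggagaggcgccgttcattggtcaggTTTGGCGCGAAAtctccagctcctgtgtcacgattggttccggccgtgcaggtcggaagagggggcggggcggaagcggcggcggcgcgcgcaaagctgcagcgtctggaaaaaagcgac
The 8-letter E2F string began 39 bases before the start in TYMS, 5 bases before it in POLE2, which it thus spans, and 114 bases before it in LIG1. A match describes the letters only.

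Libraries held 15514412 to 22921184 counts assigned to genes. All 10 interferon-induced genes on a check list rose in both lines by edgeR's test, with log2 fold changes of 1.92 to 5.80 in SK-MEL-5 and 2.32 to 6.43 in MALME-3M. All 8 melanocytic markers exceeded 1 CPM (counts per 1000000 counts assigned to genes, TMM-scaled) in every group. Of 18 markers of other cell types, 14 to 16 were below 1 CPM in each group, and the lymphoid, endothelial and keratinocyte markers were among these in every group. The number at 0 in all libraries of a group was 7 in treated and 8 in untreated SK-MEL-5 and 4 in treated and 4 in untreated MALME-3M, with the T cell marker CD3D at 0 throughout. Their summed level was 133 to 138 CPM in treated SK-MEL-5, against 163 to 190 CPM in untreated SK-MEL-5, without overlap. It was 17.2 to 19.8 CPM in treated MALME-3M, against 19.5 to 20.6 CPM in untreated MALME-3M, with overlap. Of these markers LUM fell by 0.36 on the log2 scale in SK-MEL-5 and by 0.63 in MALME-3M (edgeR adjusted p = 0.00510 and 0.000366), with 122 to 128 CPM in treated and 152 to 178 CPM in untreated SK-MEL-5. COL1A2 and ITGAM rose in MALME-3M (log2 fold changes 1.31 and 1.34, edgeR adjusted p = 0.00547 and 0.0343), where ITGAM stayed below 1 CPM. The nuclear RNA MALAT1 took 1.36% to 1.40% of the gene counts in treated SK-MEL-5, against 1.23% to 1.27% in untreated SK-MEL-5. It took 1.85% to 2.27% in treated MALME-3M, with replicate 3 the lowest, against 1.75% to 1.85% in untreated MALME-3M. The part of MALAT1 and of these markers in the results was not tested. Summed over the 43 members, the level was 4829 to 4987 CPM in treated SK-MEL-5, against 5018 to 5188 CPM in untreated SK-MEL-5. It was 4268 to 4423 CPM in treated MALME-3M, against 4406 to 4560 CPM in untreated MALME-3M. The sums did not overlap between treated and untreated SK-MEL-5 and overlapped in MALME-3M.

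Levels between genes were compared as gene counts per kilobase of exon, scaled to 1000000 over all genes with an annotated exonic length. On this scale the members spanned from PCNA to FEN1 in every group. PCNA, the sliding clamp, stood at 707 ± 27.1 in treated SK-MEL-5 and 761 ± 8.19 in untreated SK-MEL-5, and at 815 in treated MALME-3M and 843 in untreated MALME-3M (SD, n = 3 each). TYMS, thymidylate synthase, came next with 514 in treated and 607 in untreated SK-MEL-5, and 336 in treated and 401 in untreated MALME-3M. The helicase subunits MCM3 and MCM7 followed in all 4 groups, with 396 and 275 in untreated SK-MEL-5. MCM2, a subunit of the same hexamer, stood at 34.1 in untreated SK-MEL-5, and GINS3 at 10.7. Between neighbours in the order, the ranges over the 3 libraries overlapped in 23 of 42 pairs in treated SK-MEL-5, 23 in untreated SK-MEL-5, 35 in treated MALME-3M and 24 in untreated MALME-3M, so most of the middle of the order is not resolved. The highest of each role in untreated SK-MEL-5 were CDC6 for licensing, MCM3 for the helicase, CDC45 for its activation, PRIM1 for primase and polymerases, PCNA, RPA1 for single-strand binding, LIG1 for Okazaki fragments, TYMS for nucleotides and the checkpoint adaptor CLSPN. By transcript TPM in untreated SK-MEL-5, CDC6, CDC45 and PCNA kept that place, while MCM4 (433), POLE (68.5), RPA3 (89.8), FEN1 (59.0), RRM2 (416) and CHAF1A (128) were the highest of the other 6 roles.

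**Figure D1:**
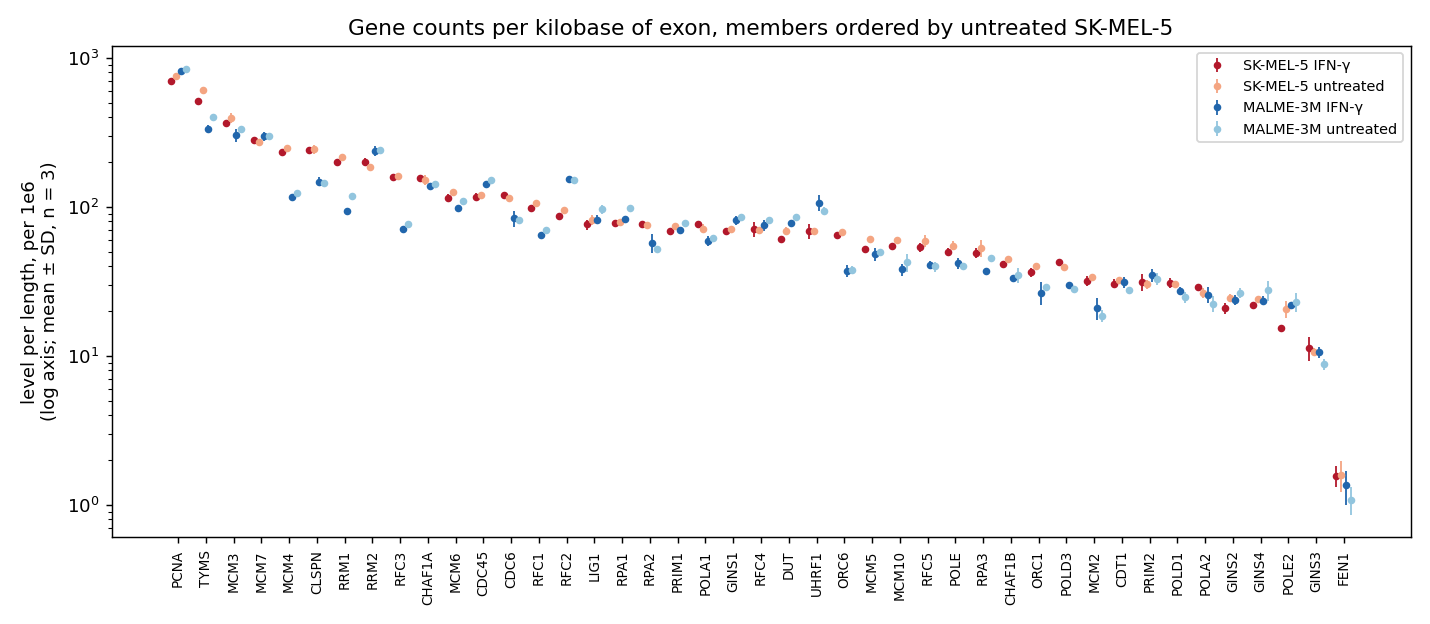
Gene counts per kilobase of exon, scaled to 1000000 (log axis), for the 43 members in the order of untreated SK-MEL-5. Points are means and bars SDs of 3 libraries for IFN-γ-treated and untreated SK-MEL-5 and MALME-3M cells; PCNA is at the top in every group, with 761 in untreated SK-MEL-5, and FEN1 at the bottom.

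FEN1, the flap endonuclease that trims Okazaki fragments, had only 195 gene counts over the 12 libraries. The transcript tables gave it 7840 estimated counts, 40.2 times its gene counts. Across 10340 genes the median of this ratio was 0.407, with quartiles of 0.244 and 0.557. Its transcript level was 49.6 to 61.1 TPM in treated SK-MEL-5, against 54.0 to 69.0 TPM in untreated SK-MEL-5. It was 31.1 to 39.7 TPM in treated MALME-3M, against 30.3 to 42.8 TPM in untreated MALME-3M. Both pairs of groups overlapped, and the FEN1 row of the gene counts is uncertain. Transcript and gene tables also ordered other members differently: in untreated SK-MEL-5 TYMS ranked 2 among the members by gene counts per length and 11 by TPM, and MCM4 ranked 5 and 1 on these scales.

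After 24 h of IFN-γ the replication genes changed little in either line. By edgeR's quasi-likelihood test, with p-values adjusted over all 15810 genes and calls made below 0.05, 3 of 43 members fell in SK-MEL-5 (TYMS, MCM5 and POLE2) and none rose. Among all genes tested 13.0% were called in SK-MEL-5, 5.98% higher and 7.05% lower. In MALME-3M 5 of 43 members fell (RRM1, RPA3, TYMS, RPA1 and LIG1) and none rose, where 18.3% of all genes were called, 9.51% higher and 8.77% lower. TYMS was the 1 member called in both lines, 7 were called in at least 1 line and 36 in neither. At an unadjusted p below 0.05 there were 12 members in SK-MEL-5 (27.9%, beside 25% of all genes) and 13 in MALME-3M (30.2%, beside 29.3% of all genes). No member changed by more than 2-fold, and the fitted log2 fold changes ran from -0.41 to 0.14 in SK-MEL-5 and from -0.31 to 0.33 in MALME-3M. The 0.33 was that of FEN1, whose gene counts are few and uncertain, and the next highest in MALME-3M was GINS3 at 0.28.

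The log2 fold change was below 0 for 29 of 43 members in SK-MEL-5, with a median of -0.08. Over all genes tested it was below 0 for 8736 of 15810 there, with a median of -0.03. In MALME-3M it was below 0 for 27 of 43 members, with a median of -0.04, and for 7749 of all 15810 genes, with a median of 0.00074. Treated and untreated libraries did not overlap, with the treated ones lower, for 15 members in SK-MEL-5 (background 17.4% of all genes) and for 9 in MALME-3M (background 16.5%). With the treated ones higher this held for 3 members in SK-MEL-5 (background 11.7%) and 5 in MALME-3M (background 16.6%). In such bulk libraries fewer cells in S phase and less transcript per cell cannot be told apart. Replicates were close, with a median coefficient of variation over the members of 3.89% in treated and 4.16% in untreated SK-MEL-5, and 4.21% in treated and 4.62% in untreated MALME-3M.

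**Figure D2:**
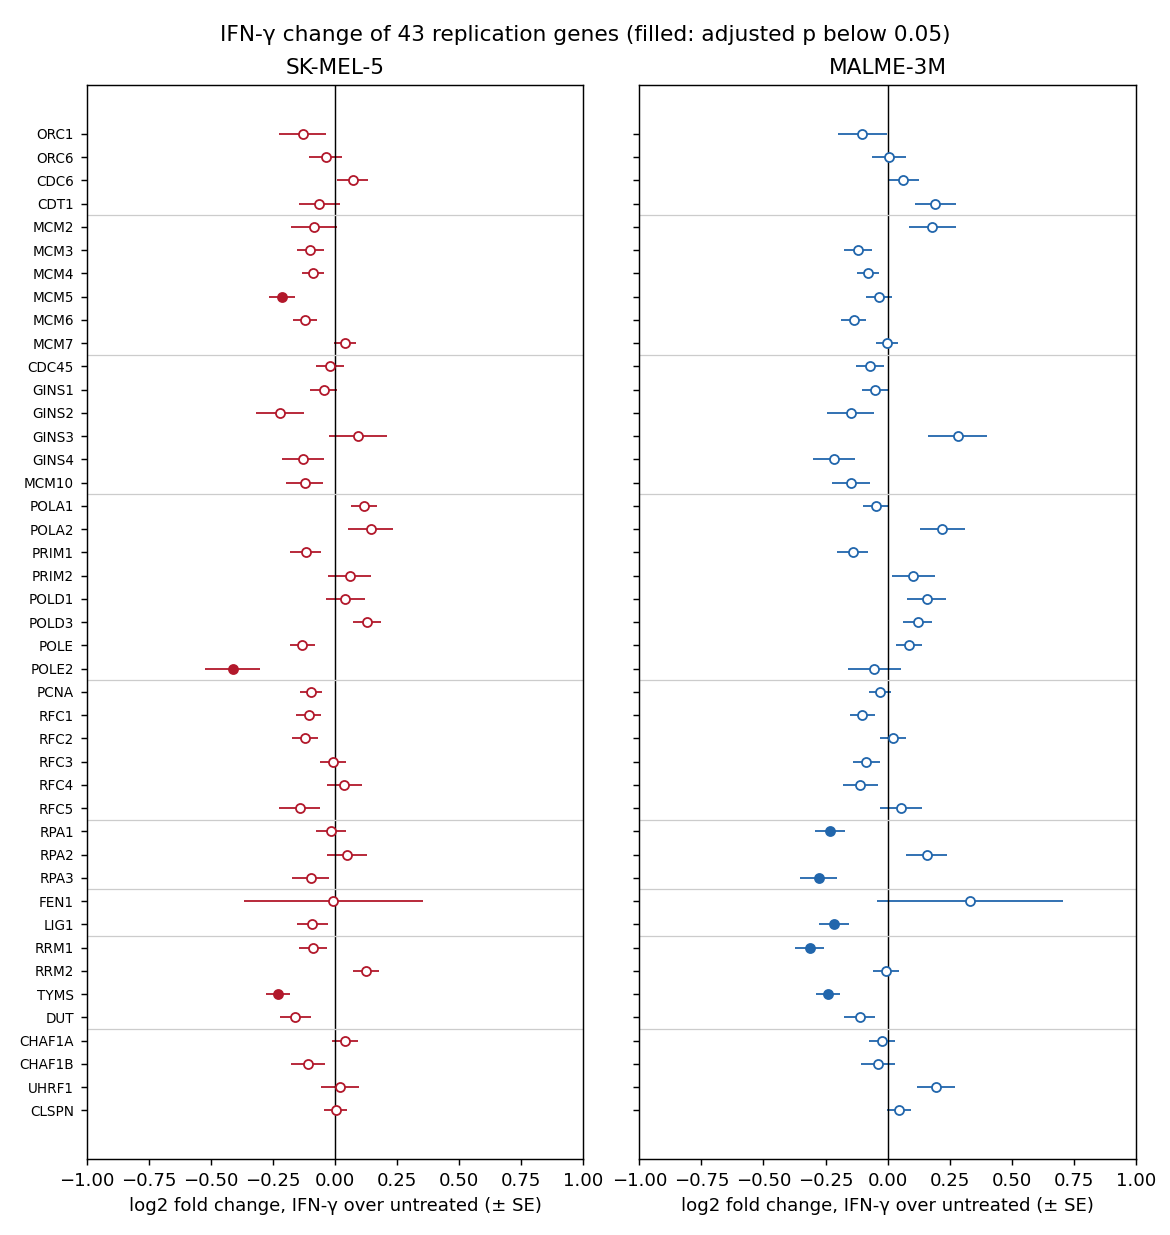
Log2 fold change (± SE) of each of the 43 members, IFN-γ over untreated, in SK-MEL-5 (left) and MALME-3M (right), grouped by role from licensing at the top to chromatin and checkpoint at the bottom, with filled points for edgeR adjusted p below 0.05. The 3 filled points in SK-MEL-5 and the 5 in MALME-3M all lie below 0, and TYMS is filled in both.

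Nucleotide supply held the 1 member that fell in both lines. TYMS, which makes thymidylate, had 320, 319 and 308 CPM in treated SK-MEL-5, against 359, 388 and 363 CPM in untreated SK-MEL-5. In treated MALME-3M it had 211, 216 and 217 CPM, against 272, 245 and 243 CPM in untreated MALME-3M. The groups did not overlap in either line. TYMS fell by 0.23 on the log2 scale in SK-MEL-5 (SE 0.05, edgeR adjusted p = 0.00347) and by 0.24 in MALME-3M (SE 0.05, edgeR adjusted p = 0.00179). Of its exonic bases 39.2% are shared with ENOSF1 on the opposite strand, and the strand setting of the counting is not given in the sources used here. ENOSF1 had 52.4, 48.1 and 47.7 CPM in treated SK-MEL-5, against 47.7, 44.0 and 55.5 CPM in untreated SK-MEL-5. In treated MALME-3M it had 53.5, 58.7 and 62.0 CPM, against 57.1, 52.4 and 56.9 CPM in untreated MALME-3M, so its groups overlapped in both lines. With transcript estimated counts the MALME-3M change of TYMS was -0.19 and no longer called (edgeR adjusted p = 0.259).

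RRM1, the large subunit of ribonucleotide reductase, had the lowest log2 fold change of the members in MALME-3M. It had 107, 102 and 97.5 CPM in treated MALME-3M, against 133, 125 and 124 CPM in untreated MALME-3M, with no overlap. It fell by 0.31 on the log2 scale there (SE 0.06, edgeR adjusted p = 0.000522), and the call held in each setting tried, transcript counts included. In SK-MEL-5 the values overlapped, at 202, 219 and 207 CPM in treated and 226, 234 and 208 CPM in untreated cells (log2 fold change -0.09, edgeR adjusted p = 0.364). Its partner RRM2, the small subunit, was not called in either line. RRM2 had 251, 291 and 260 CPM in treated SK-MEL-5, against 241, 253 and 241 CPM in untreated SK-MEL-5. It had 324, 317 and 343 CPM in treated MALME-3M, against 331, 331 and 327 CPM in untreated MALME-3M. DUT, the dUTPase that keeps uracil out of DNA, had log2 fold changes of -0.16 in SK-MEL-5 and -0.11 in MALME-3M and was called in neither.

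The level of RRM2 per length over that of RRM1, a ratio chosen after the values were seen, was 0.976, 1.04 and 0.982 in treated SK-MEL-5, against 0.840, 0.849 and 0.906 in untreated SK-MEL-5. In treated MALME-3M it was 2.36, 2.44 and 2.76, against 1.96, 2.07 and 2.08 in untreated MALME-3M. Treated libraries lay above untreated ones in both lines without overlap, and both MALME-3M groups lay above both SK-MEL-5 groups. No test was made of this ratio. Transcript TPM put RRM2 above RRM1 in every group, in SK-MEL-5 at 443 and 181 in treated and 416 and 180 in untreated cells. In MALME-3M the TPM values were 511 and 86.9 in treated and 475 and 117 in untreated cells. RRM2 shares 20.2% of its exonic bases with a second annotated gene on the same strand, so its counts are uncertain.

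RPA, the trimer that coats single-stranded DNA, had 2 of its 3 subunits called in MALME-3M and none in SK-MEL-5. RPA1, the large subunit, had 128, 116 and 110 CPM in treated MALME-3M, against 139, 145 and 131 CPM in untreated MALME-3M. It fell by 0.23 on the log2 scale (SE 0.06, edgeR adjusted p = 0.0114), without overlap, replicate 1 of the treated group lying close to the untreated ones. RPA3, the small subunit, had 31.2, 30.4 and 31.8 CPM in treated MALME-3M, against 36.0, 38.8 and 38.5 CPM in untreated MALME-3M. It fell by 0.28 (SE 0.08, edgeR adjusted p = 0.0136) with no overlap. RPA2, the middle subunit, had 30.6, 25.9 and 33.7 CPM in treated and 27.5, 25.6 and 27.9 CPM in untreated MALME-3M, a log2 fold change of 0.16 (edgeR adjusted p = 0.225). In SK-MEL-5 the log2 fold changes of RPA1, RPA2 and RPA3 were -0.02, 0.05 and -0.10. Both calls were lost without untreated MALME-3M replicate 2, with edgeR adjusted p of 0.0662 for RPA1 and 0.0564 for RPA3, and that of RPA3 also without treated replicate 2 (0.0585). With transcript estimated counts neither was called (edgeR adjusted p = 0.138 for RPA1 and 0.203 for RPA3).

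LIG1, the ligase that seals Okazaki fragments, had 136, 139 and 145 CPM in treated MALME-3M, against 176, 160 and 151 CPM in untreated MALME-3M. The groups did not overlap, and LIG1 fell by 0.22 on the log2 scale (SE 0.06, edgeR adjusted p = 0.0186). The highest untreated library bore on the call, which was lost without it (replicate 1, log2 fold change -0.15, edgeR adjusted p = 0.134) and without treated replicate 2 (edgeR adjusted p = 0.0585). Transcript estimated counts, which held 0.110 of its gene counts, gave the opposite sign, 0.24, with an edgeR adjusted p of 0.805. In SK-MEL-5 LIG1 had 132, 123 and 118 CPM in treated and 126, 134 and 138 CPM in untreated cells, which overlapped.

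Of the 6 helicase subunits MCM5 alone was called, in SK-MEL-5. It had 95.8, 97.8 and 93.1 CPM in treated SK-MEL-5, against 112, 110 and 111 CPM in untreated SK-MEL-5. The groups did not overlap, and MCM5 fell by 0.21 on the log2 scale (SE 0.05, edgeR adjusted p = 0.00849). Its transcript estimated counts gave -0.38 without a call (edgeR adjusted p = 0.450). In MALME-3M it had 86.3, 91.5 and 96.6 CPM in treated and 93.5, 95.1 and 92.6 CPM in untreated cells, which overlapped. MCM3, the subunit with the highest level per length from gene counts, had 330, 336 and 332 CPM in treated and 338, 379 and 352 CPM in untreated SK-MEL-5, which did not overlap but did not pass the test (log2 fold change -0.10, SE 0.05, edgeR adjusted p = 0.284). It had 268, 285 and 304 CPM in treated and 329, 305 and 297 CPM in untreated MALME-3M (-0.12, SE 0.05, edgeR adjusted p = 0.152), where the groups overlapped. The 5 subunits other than MCM5 had log2 fold changes of -0.12 (MCM6) to 0.04 (MCM7) in SK-MEL-5. In MALME-3M the 6 subunits ran from -0.14 (MCM6) to 0.18 (MCM2). MCM6 had 106, 103 and 106 CPM in treated MALME-3M, against 118, 111 and 117 CPM in untreated MALME-3M, and did not pass the test (edgeR adjusted p = 0.0640). It passed with DESeq2 size factors (edgeR adjusted p = 0.0342), with upper-quartile scaling (0.0237) and with the DESeq2 test (adjusted p = 0.0177). MCM6 did not pass without the filter on low counts (edgeR adjusted p = 0.225) or with any single library left out (0.0556 to 0.202). Transcript estimated counts, which held 0.0338 of its gene counts, gave the opposite sign, 1.47, with an edgeR adjusted p of 0.282.

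POLE2, the second subunit of the leading-strand polymerase epsilon, had the lowest log2 fold change of all members in either line. It had 11.2, 11.5 and 11.3 CPM in treated SK-MEL-5, against 13.4, 15.7 and 16.1 CPM in untreated SK-MEL-5, with no overlap. It fell by 0.41 on the log2 scale (SE 0.11, edgeR adjusted p = 0.0184). The call was lost without untreated SK-MEL-5 replicate 2 or 3 and without treated SK-MEL-5 replicate 1 or 3, with edgeR adjusted p of 0.0776, 0.0727, 0.0534 and 0.0595 in that order, and with transcript estimated counts (0.473). In MALME-3M it had 17.1, 16.2 and 17.3 CPM in treated and 15.6, 20.2 and 16.8 CPM in untreated cells, which overlapped. POLE, the catalytic subunit of the same polymerase, had log2 fold changes of -0.13 in SK-MEL-5 and 0.09 in MALME-3M and was called in neither. The other 6 polymerase and primase members, POLA1, POLA2, PRIM1, PRIM2, POLD1 and POLD3, were called in neither line, with PRIM1 below 0 in both. PRIM1, the catalytic subunit of primase, had 41.9, 40.9 and 41.9 CPM in treated and 46.4, 46.2 and 42.7 CPM in untreated SK-MEL-5 (log2 fold change -0.12, SE 0.06, edgeR adjusted p = 0.265). It had 45.1, 42.2 and 44.7 CPM in treated and 46.8, 46.7 and 51.8 CPM in untreated MALME-3M (-0.14, SE 0.06, edgeR adjusted p = 0.137), so its groups did not overlap but did not pass the test. POLA2 shares 35.1% of its exonic bases with a second annotated gene, so its counts are uncertain.

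**Figure D3:**
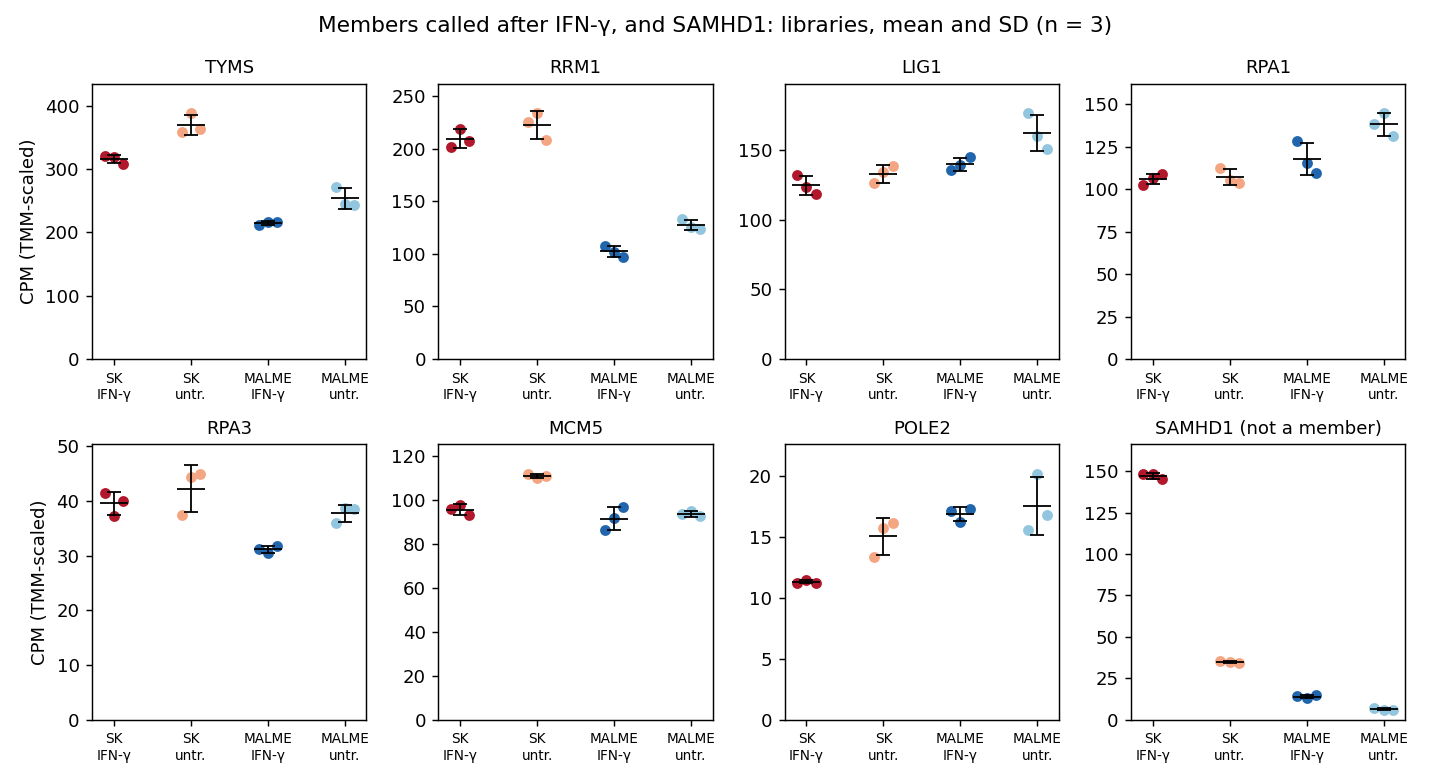
TMM-scaled CPM of the 7 members called after IFN-γ in at least 1 line, and of the dNTP hydrolase gene SAMHD1, in treated and untreated SK-MEL-5 and MALME-3M cells. Points are libraries, bars the mean and SD of 3 and the axes start at 0; TYMS is lower in treated cells of both lines, and SAMHD1 stands at 145 to 148 CPM in treated SK-MEL-5.

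The remaining roles held no call after IFN-γ in either line. The 4 licensing factors ORC1, ORC6, CDC6 and CDT1 had log2 fold changes of -0.13 to 0.07 in SK-MEL-5 and -0.10 to 0.19 in MALME-3M. CDC6, the helicase loader, had 168, 168 and 160 CPM in treated and 166, 158 and 148 CPM in untreated SK-MEL-5. In MALME-3M it had 114, 116 and 134 CPM in treated and 111, 119 and 117 CPM in untreated cells, so that its groups overlapped in both lines. CDC45, the 4 GINS subunits and MCM10, which turn the loaded helicase on, ran from -0.22 (GINS2) to 0.09 (GINS3) in SK-MEL-5 and from -0.22 (GINS4) to 0.28 (GINS3) in MALME-3M. CDC45 had 79.4, 89.5 and 80.2 CPM in treated and 85.9, 85.6 and 81.2 CPM in untreated SK-MEL-5 (-0.02, SE 0.06, edgeR adjusted p = 0.882). It had 105, 104 and 107 CPM in treated and 111, 115 and 105 CPM in untreated MALME-3M (-0.07, SE 0.06, edgeR adjusted p = 0.453), and its groups overlapped in both lines. The clamp PCNA and its 5 loader subunits RFC1 to RFC5 lay between -0.14 and 0.04 in SK-MEL-5 and between -0.11 and 0.05 in MALME-3M. PCNA had 257, 269 and 250 CPM in treated and 287, 277 and 265 CPM in untreated SK-MEL-5, which overlapped. It had 318, 308 and 305 CPM in treated and 317, 319 and 315 CPM in untreated MALME-3M, which also overlapped. CHAF1A and CHAF1B, which place histones on new DNA, and CLSPN stayed within -0.11 and 0.05 in both lines. UHRF1, which passes DNA methylation on to the new strand, had a log2 fold change of 0.02 in SK-MEL-5 and 0.19 in MALME-3M (edgeR adjusted p = 0.0932). It passed the test in MALME-3M without the filter on low counts (edgeR adjusted p = 0.0238) and without treated MALME-3M replicate 1 (0.0428).

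Whether the IFN-γ change differed between the lines was tested as an interaction, MALME-3M minus SK-MEL-5. By edgeR no member was called, against 4.46% of all genes (2.67% higher and 1.79% lower), while 7 had an unadjusted p below 0.05 (16.3%, beside 16.5% of all genes) and the DESeq2 test called RRM1 (adjusted p = 0.0485). These 7 were CDT1, MCM5, POLE and POLE2, with a higher change in MALME-3M, and POLA1, RPA1 and RRM1, with a lower one. RRM1 had a log2 difference of -0.23 (SE 0.08, edgeR adjusted p = 0.128) and RPA1 of -0.21 (SE 0.09, edgeR adjusted p = 0.202). Both were called without treated MALME-3M replicate 1, with edgeR adjusted p of 0.0406 for RRM1 and 0.0325 for RPA1. A change called in 1 line and not in the other is therefore not shown to differ between them by the edgeR fit of all libraries. TYMS had a log2 difference of -0.01 (SE 0.07).

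Beyond the 43 members, 96 further genes of DNA replication, nucleotide metabolism, G1/S control and S phase repair were listed, of which 94 were tested. In SK-MEL-5 7 of them rose and 5 fell, and in MALME-3M 4 rose and 14 fell. These are 12.8% called in SK-MEL-5 and 19.1% in MALME-3M, beside 13.0% and 18.3% of all genes. Their medians were -0.03 in SK-MEL-5 and -0.02 in MALME-3M. SAMHD1, a hydrolase that breaks down deoxynucleotides, was the one with the greatest fold change. It had 148, 148 and 145 CPM in treated SK-MEL-5, against 35.6, 34.7 and 34.3 CPM in untreated SK-MEL-5, and rose by 2.08 on the log2 scale (SE 0.06, edgeR adjusted p = 6.26e-15). In treated MALME-3M it had 14.3, 13.0 and 14.7 CPM, against 7.16, 6.15 and 5.88 CPM in untreated MALME-3M, and rose by 1.13 (SE 0.08, edgeR adjusted p = 3.81e-09). The groups were wide apart in both lines, and the change was lower in MALME-3M by 0.95 on the log2 scale (SE 0.10, edgeR adjusted p = 9.75e-06). IMPDH2, an enzyme of guanine nucleotide synthesis, fell by 0.18 in SK-MEL-5 (edgeR adjusted p = 0.0421) and by 0.30 in MALME-3M (edgeR adjusted p = 0.00111). DTYMK, the thymidylate kinase downstream of TYMS, fell by 0.22 in MALME-3M (edgeR adjusted p = 0.00908) and had a log2 fold change of -0.14 in SK-MEL-5 (edgeR adjusted p = 0.124). The SAMHD1 rise was called in both lines in each setting, and its line difference in each but transcript estimated counts (edgeR adjusted p = 0.0541). The DTYMK call was lost without untreated MALME-3M replicate 2 (edgeR adjusted p = 0.0538), and the SK-MEL-5 call of IMPDH2 without most single libraries (highest edgeR adjusted p = 0.165, without untreated SK-MEL-5 replicate 2). With transcript estimated counts no call of DTYMK or IMPDH2 held in either line.

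Among 24 tested genes of G1/S control and the E2F family, 3 rose and 4 fell in each line, which is 29.2% called, beside 13.0% of all genes in SK-MEL-5 and 18.3% in MALME-3M. CDK6, a kinase that phosphorylates RB with D-type cyclins, fell in both lines. It had 136, 140 and 147 CPM in treated SK-MEL-5, against 191, 172 and 186 CPM in untreated SK-MEL-5 (log2 fold change -0.38, SE 0.05, edgeR adjusted p = 4.42e-05). It had 126, 126 and 134 CPM in treated MALME-3M, against 191, 191 and 202 CPM in untreated MALME-3M (log2 fold change -0.59, SE 0.05, edgeR adjusted p = 1.01e-07). CCNA2, the cyclin of S and G2 phase, fell by 0.26 in SK-MEL-5 (edgeR adjusted p = 0.00736) and by 0.37 in MALME-3M (edgeR adjusted p = 0.000256). E2F7, an E2F family repressor, rose by 0.25 in MALME-3M (edgeR adjusted p = 0.00508), and E2F1, an activator, by 0.35 (edgeR adjusted p = 0.0270). CDKN2C, an inhibitor of CDK4 and CDK6, fell by 0.40 in MALME-3M (edgeR adjusted p = 0.0262). In SK-MEL-5 CCND1, a D-type cyclin, rose by 0.80 (edgeR adjusted p = 5.39e-11) and CDKN1B, a CDK inhibitor, by 0.27 (edgeR adjusted p = 0.0176), while CCND3, another D-type cyclin, fell by 0.31 (edgeR adjusted p = 0.0102). Leaving out 1 library of the line ended the SK-MEL-5 calls of CCNA2 (untreated replicate 2 or treated replicate 3), CCND3 (treated replicate 1 or 3) and CDKN1B (untreated replicate 2 or 3, or treated replicate 2 or 3). In MALME-3M it ended those of E2F7 (treated replicate 3), CDKN2C (untreated replicate 1 or 2, or treated replicate 2) and E2F1 (any of 5 of the 6 libraries). The adjusted p then ranged from 0.0507 to 0.135. With transcript estimated counts the SK-MEL-5 calls of CDK6 (edgeR adjusted p = 0.247), CCNA2 (0.272) and CCND3 (0.146) were lost. So were the MALME-3M calls of CDKN2C (0.174), E2F1 (0.294) and E2F7 (0.685). Those of CCND1 and CDKN1B in SK-MEL-5 and of CDK6 and CCNA2 in MALME-3M held. CDKN2A and CDKN2B, also listed, were too low to be tested.

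In the other 3 lists the share called in SK-MEL-5 was 5.56% for licensing and firing, 0% for polymerases, ligation and processing and 8% for S phase chromatin and repair, beside 13.0% of all genes. In MALME-3M it was 5.56%, 26.7% and 12% for the same lists, beside 18.3% of all genes. Among 18 licensing and firing genes, CDC7, the kinase that fires origins, rose by 0.25 in SK-MEL-5 (edgeR adjusted p = 0.0173), and DBF4, its regulatory subunit, fell by 0.21 in MALME-3M (edgeR adjusted p = 0.00954). Of 15 polymerase, ligation and processing genes none was called in SK-MEL-5 by edgeR, 4 having an unadjusted p below 0.05, and POLE3, RNASEH2C, DSCC1 and TOP2A fell in MALME-3M by 0.20 to 0.36. Of 25 S phase chromatin and repair genes, BLM and BRCA2 rose by 0.28 and 0.18 in SK-MEL-5, and WEE1, HELLS and EXO1 fell by 0.40, 0.34 and 0.20 in MALME-3M. Leaving out single libraries ended the calls of CDC7 (untreated SK-MEL-5 replicate 3, treated replicate 2 or 3), BRCA2 (5 of the 6 SK-MEL-5 libraries), EXO1 (untreated MALME-3M replicate 1, treated replicate 2), POLE3 and DSCC1 (most MALME-3M and some SK-MEL-5 libraries), with adjusted p of 0.0508 to 0.159. With transcript estimated counts the DBF4 change had the opposite sign (0.0097). Of the calls named for these 3 lists only that of HELLS held there. TOP2A then had a log2 fold change of -0.0051 (edgeR adjusted p = 0.997), and the adjusted p was 0.0838 for RNASEH2C, 0.397 for WEE1 and 0.823 for BLM.

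Genes of G2 and M phase, the next stage of the cycle, were set beside the members. Of 28, none rose and 21 fell in MALME-3M (75%, median -0.23), beside 8.77% of all genes lower there. In SK-MEL-5 none rose and 2 fell (7.14%, median -0.05), beside 7.05% of all genes, PLK1 and KIF23, each called no longer without some single SK-MEL-5 libraries (highest edgeR adjusted p = 0.0797 for PLK1 and 0.0956 for KIF23). CCNB2, a mitotic cyclin, had the lowest log2 fold change of the genes called, with 100, 102 and 86.7 CPM in treated MALME-3M, against 130, 133 and 127 CPM in untreated MALME-3M (-0.44, SE 0.06, edgeR adjusted p = 2.48e-05). The summed level of the 28 genes was 5163 to 5416 CPM in treated MALME-3M, against 6300 to 6535 CPM in untreated MALME-3M. It was 6039 to 6228 CPM in treated SK-MEL-5, against 6369 to 6611 CPM in untreated SK-MEL-5. The sums did not overlap in either line. Of the same line and libraries, 5 of 43 replication members fell in MALME-3M with a median of -0.04, and the 2 lists were not tested against each other.

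**Figure D4:**
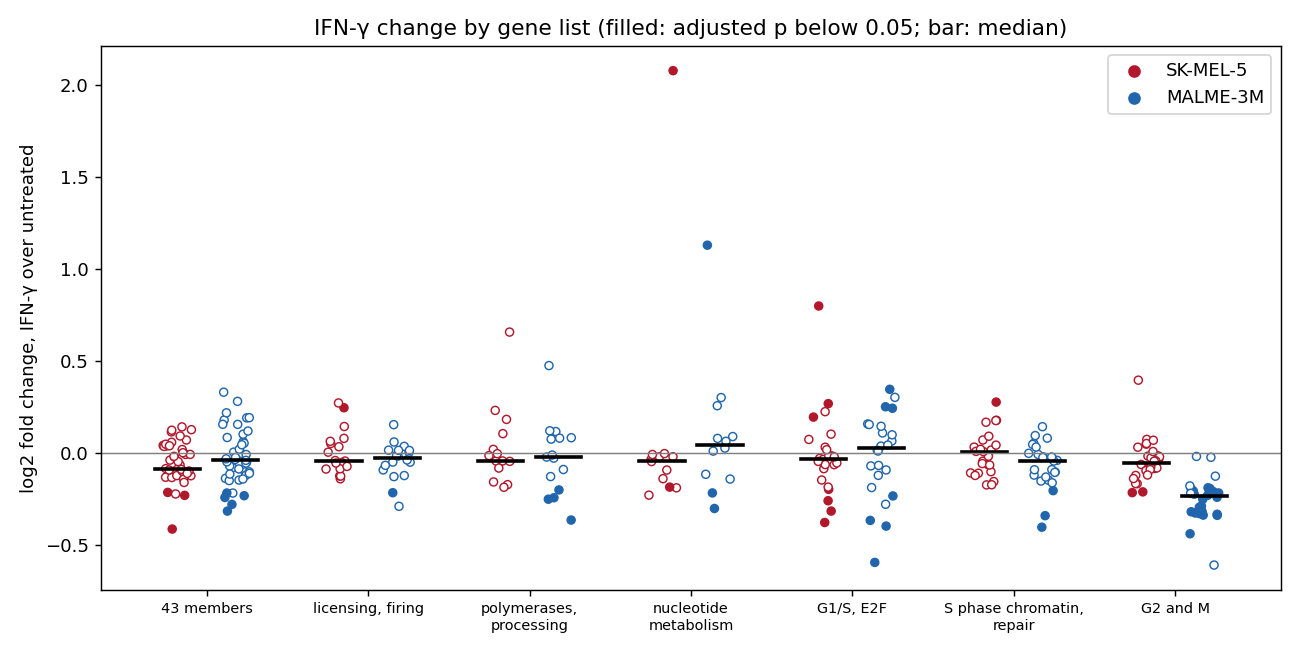
Log2 fold change after IFN-γ of the 43 members, of 5 lists of further replication and S phase genes and of G2 and M phase genes, in SK-MEL-5 and MALME-3M. Each point is a gene, filled where edgeR's adjusted p was below 0.05, and bars are medians; the member medians are -0.08 in SK-MEL-5 and -0.04 in MALME-3M, the G2 and M medians -0.05 and -0.23, and SAMHD1 is the point at 2.08.

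Between the lines the members differed by -1.02 to 0.73 on the log2 scale in untreated cells. In untreated cells 12 members were higher and 21 lower in MALME-3M than in SK-MEL-5, so that 76.7% were called, beside 71.7% of all genes (34.5% higher and 37.2% lower). In treated cells 13 were higher and 20 lower, beside 71.8% of all genes (35.4% higher and 36.4% lower). In both states 29 members were called in the same direction, 10 higher and 19 lower in MALME-3M, none in opposite directions and 6 in neither. All untreated MALME-3M libraries lay above all untreated SK-MEL-5 libraries for 13 members (background 35.7%) and below them for 23 (background 38.1%). Between treated lines this held for 14 members above (background 37.0%) and 21 below (background 37.7%). The treated and untreated comparisons come from separate libraries of the same lines. The median log2 difference of the members was -0.20 in untreated and -0.13 in treated cells, and RFC3 was the 1 member beyond 2-fold in untreated cells.

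Subunits of 1 complex stood on opposite sides. Of the clamp loader, RFC3 had 58.9, 54.0 and 56.6 CPM in untreated MALME-3M, against 113, 117 and 114 CPM in untreated SK-MEL-5 (log2 fold change -1.02, SE 0.05, edgeR adjusted p = 3.01e-12). RFC2 had 89.7, 84.0 and 85.8 CPM in untreated MALME-3M, against 54.1, 52.7 and 49.2 CPM in untreated SK-MEL-5 (0.73, SE 0.05, edgeR adjusted p = 2.27e-10). The groups were far apart in both directions. RFC1, the large subunit, had 124, 119 and 119 CPM in untreated MALME-3M, against 174, 180 and 175 CPM in untreated SK-MEL-5 (-0.55, SE 0.05, edgeR adjusted p = 1.75e-08). RFC5 had 31.4, 32.0 and 36.0 CPM in untreated MALME-3M, against 54.4, 46.4 and 42.5 CPM in untreated SK-MEL-5 (-0.52, SE 0.08, edgeR adjusted p = 1.73e-05). RFC4 was higher in MALME-3M by 0.28 in untreated cells. The level of RFC2 per length over RFC3 was 1.98, 2.02 and 1.97 in untreated MALME-3M, against 0.624, 0.588 and 0.562 in untreated SK-MEL-5, a ratio chosen after the values were seen. Transcript TPM put RFC2 above RFC3 in both lines, at 61.0 and 21.5 in untreated SK-MEL-5 and 100 and 14.4 in untreated MALME-3M. Their order in SK-MEL-5 thus depended on the scale. With transcript estimated counts, which held 0.166 of its gene counts, RFC3 was not called in untreated cells (log2 fold change -0.43, edgeR adjusted p = 0.653).

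Of the helicase, MCM4 had 231, 227 and 212 CPM in untreated MALME-3M, against 428, 437 and 425 CPM in untreated SK-MEL-5 (log2 fold change -0.95, SE 0.04, edgeR adjusted p = 2.99e-13). MCM2 had 25.9, 21.5 and 22.9 CPM in untreated MALME-3M, against 44.6, 40.9 and 38.4 CPM in untreated SK-MEL-5 (-0.82, SE 0.09, edgeR adjusted p = 2.76e-07). Neither pair of groups overlapped, but MCM2 was not called with transcript estimated counts (-0.43, edgeR adjusted p = 0.318), and 22.7% of its exonic bases are shared with an antisense gene. MCM3, MCM5 and MCM6 were lower in MALME-3M by 0.20, 0.24 and 0.16 in untreated cells. MCM7 was higher in MALME-3M by 0.19 (edgeR adjusted p = 0.000985), with 340, 349 and 325 CPM in untreated MALME-3M and 295, 302 and 294 CPM in untreated SK-MEL-5. MCM7 per length over MCM4 came to 2.34, 2.44 and 2.44 in untreated MALME-3M, against 1.10 in each untreated SK-MEL-5 library, a ratio also chosen after the values were seen. Transcript TPM put MCM4 above MCM7 in both lines, at 212 and 132 in untreated MALME-3M and 433 and 127 in untreated SK-MEL-5. Which subunit was higher thus depended on the scale.

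RRM1 and RRM2, which form 1 enzyme, also went opposite ways. With the values given above for untreated cells, RRM1 was lower in MALME-3M by 0.81 (SE 0.06, edgeR adjusted p = 1.81e-10) and RRM2 higher by 0.43 (SE 0.05, edgeR adjusted p = 6.55e-07). TYMS was lower in MALME-3M by 0.55 in untreated cells (SE 0.05, edgeR adjusted p = 8.46e-09) and by 0.56 in treated cells (edgeR adjusted p = 6.47e-09). DUT was higher by 0.36 in untreated cells (edgeR adjusted p = 5.23e-05).

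ORC6, a subunit of the origin recognition complex, had 38.8, 43.2 and 42.4 CPM in untreated MALME-3M, against 72.6, 75.5 and 67.2 CPM in untreated SK-MEL-5 (log2 fold change -0.79, SE 0.07, edgeR adjusted p = 3.19e-09). CLSPN, the claspin gene of the S phase checkpoint, had 211, 196 and 197 CPM in untreated MALME-3M, against 310, 336 and 330 CPM in untreated SK-MEL-5 (-0.69, SE 0.05, edgeR adjusted p = 1.13e-10). In both genes every MALME-3M library lay below every SK-MEL-5 library. ORC1 and CDC6, which load the helicase with ORC6, were lower in MALME-3M by 0.43 and 0.44 in untreated cells, and CDT1 was not called (-0.16, edgeR adjusted p = 0.0878). Helicase activators were divided, with CDC45 and GINS1 higher in MALME-3M by 0.39 and 0.31, GINS4 by 0.26, and MCM10 lower by 0.45. Of the polymerases POLA1, POLD1, POLD3 and POLE were lower and none was higher in untreated MALME-3M. UHRF1 was higher by 0.51, PCNA by 0.20, RPA1 by 0.37 and LIG1 by 0.29, while RPA2 was lower by 0.47 and CHAF1B by 0.31.

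In treated cells the 10 members with the largest differences in untreated cells kept their direction and were all called from gene counts. With transcript estimated counts 3 of these were lower in treated MALME-3M but not called. They were RFC3 (-1.78, edgeR adjusted p = 0.0767), MCM2 (-0.22, 0.611) and RFC5 (-0.25, 0.142). The values that follow are from gene counts. RFC3 had 54.7, 54.9 and 50.2 CPM in treated MALME-3M, against 111, 118 and 112 CPM in treated SK-MEL-5 (log2 fold change -1.10, SE 0.05, edgeR adjusted p = 9.41e-13). RRM1 was lower in treated MALME-3M by 1.03 (SE 0.06, edgeR adjusted p = 4.58e-12). MCM2 was lower by 0.55 there (SE 0.09, edgeR adjusted p = 3.16e-05), and RFC2 was higher by 0.88 (SE 0.05, edgeR adjusted p = 1.57e-11). POLE2, not called between untreated lines (0.21, edgeR adjusted p = 0.0853), was higher in treated MALME-3M by 0.57 (SE 0.11, edgeR adjusted p = 0.000136). The difference between these 2 differences is the interaction above, which was not called for POLE2 (edgeR adjusted p = 0.244).

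**Figure D5:**
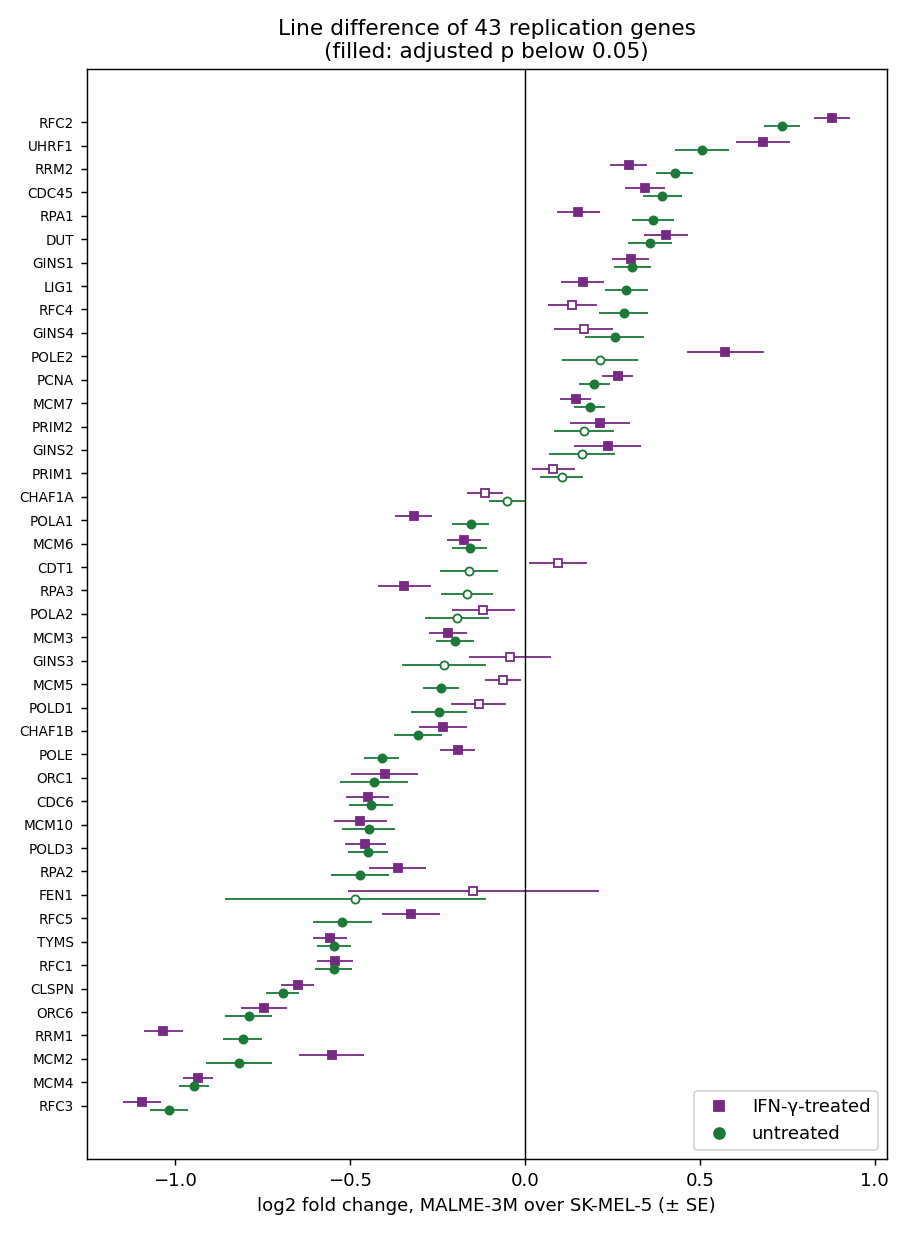
Log2 fold change (± SE) of the 43 members, MALME-3M over SK-MEL-5, in IFN-γ-treated cells (squares) and untreated cells (circles), ordered by the untreated difference, with filled symbols for edgeR adjusted p below 0.05. RFC2 lies at the top, at 0.73 in untreated cells, and RFC3 at the bottom, at -1.02.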

How the data were processed

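Total RNA of 12 libraries was sequenced as read pairs of 100 cycles each, per the labels' protocols. The tools listed in the submitters' processing notes are cutadapt, STAR, SAMtools, HTSeq and kallisto (no versions), with hg38 as the build. The authors deposited whole-number read counts per gene symbol, not normalized, per the file headers, and tables of estimated counts and TPM per transcript. Which annotation and strand setting were used, and whether molecular identifiers were counted, is not stated in the labels or headers, and no label marks a batch.

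Gene counts of 15514412 to 22921184 per library were tested with edgeR 4.0.16 in R 4.3.3. The filter was filterByExpr (minimum count 10) and the scaling TMM. All 12 libraries entered a single quasi-likelihood fit in which each group had its own mean (common biological coefficient of variation 0.0955, residual degrees of freedom 8). P-values were adjusted by Benjamini-Hochberg over 15810 genes and called below 0.05. The SE is the log2 fold change over the root of its F value. Levels per length divide gene counts by exonic kilobases of GENCODE 29 (GRCh38). Between replicates of a group the chi-square per gene was 6.35 to 19.3, above sampling noise.

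Transcript estimated counts were summed to genes and rounded for an alternative fit; 3 members (MCM6, POLA1 and CHAF1B) had under 0.1 of their gene counts there. Other alternatives were DESeq2 1.42.0, other scalings, no filter on low counts, a robust fit, fits of the 6 libraries compared and leaving out each library. Members and lists were chosen with earlier results of these data known. Values in each library are given for the members called after IFN-γ, the 10 with the largest called difference between untreated lines and the highest of each role by level; from each other list up to 5 called genes with the largest change are named. MCM6, UHRF1, RPA2 and other members named with values of their own were added after their values were seen.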

Additional observations from a re-analysis of the deposited data

Results flagged for a closer look

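In the list of G1/S and nucleotide genes set beside the members, 3 had an IFN-γ change that differed between the lines by edgeR's interaction test (MALME-3M minus SK-MEL-5). SAMHD1, the dNTP hydrolase, had a log2 difference of -0.948 (edgeR adjusted p = 9.75e-06) and rose in all 3 treated libraries of both lines. CCND1, a D-type cyclin, had a log2 difference of -0.700 (edgeR adjusted p = 6.29e-07). It had 1827, 1807 and 1828 CPM in treated MALME-3M, against 1662, 1711 and 1724 CPM in untreated MALME-3M, a log2 fold change of 0.10 that was not called. In SK-MEL-5 it had 405, 435 and 413 CPM in treated cells, against 249, 243 and 228 CPM in untreated cells. CCND3, another D-type cyclin, had a log2 difference of 0.559 (edgeR adjusted p = 0.00541), with all 3 treated libraries above the untreated ones in MALME-3M and below them in SK-MEL-5.

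Of the G2 and M phase genes, 5 differed in the same test, each with the lower change in MALME-3M. The log2 differences were -0.413 for the kinesin KIF20A (edgeR adjusted p = 0.00270), -0.292 for the spindle protein NUSAP1 (0.0373), -0.287 for the spindle factor TPX2 (0.0170), -0.262 for the checkpoint kinase BUB1 (0.0445) and -0.244 for the proliferation marker MKI67 (0.0296). Leaving out 1 library at a time ended the call of BUB1 in 10 of 12 fits (edgeR adjusted p up to 0.141), of NUSAP1 in 9 (0.121), of MKI67 in 5 (0.0850) and of TPX2 in 3 (0.0615). With transcript estimated counts CCND1 and MKI67 were called (edgeR adjusted p = 0.00131 and 0.0469) and the other 6 were not (0.0541 to 0.559). None of the 43 members was called in this test by edgeR, where 7 had an unadjusted p below 0.05 and DESeq2 called RRM1.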

How the results depend on the processing

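With transcript estimated counts, 1 member fell in SK-MEL-5 (TYMS), 2 fell in MALME-3M (GINS1 and RRM1) and 7 were higher in treated MALME-3M than in treated SK-MEL-5, while the share of all genes called was 4.24% in SK-MEL-5 and 6.98% in MALME-3M. LIG1 changed sign there in MALME-3M (0.24), as did DBF4 (0.0097, edgeR adjusted p = 0.992) and MCM6 (1.47, edgeR adjusted p = 0.282). The cause was not tested, but the sums hold part of the reads, 0.110 of the gene counts for LIG1. Without a filter on low counts 1 member rose in MALME-3M (UHRF1), and the DESeq2 test called 1 member lower in the difference of IFN-γ changes (RRM1). The median level over the members, averaged over the 3 libraries of a group, was as transcript TPM 48.9 in treated and 52.6 in untreated SK-MEL-5, and 41.0 in treated and 36.5 in untreated MALME-3M, against 67.1, 70.2, 65.9 and 70.2 per length from gene counts. Leaving out each library in turn, 2 to 3 members fell and none rose in SK-MEL-5. In MALME-3M 3 to 6 fell, the lowest without untreated or treated replicate 2, and 0 to 1 rose (POLA2, UHRF1 or RPA2). In the difference 0 to 2 were lower, RPA1 and RRM1 without treated MALME-3M replicate 1. In untreated cells 11 to 15 were higher and 19 to 22 lower in MALME-3M, and in treated cells 10 to 14 higher and 20 to 21 lower. The share of all genes called was 8.38% to 13.0% in SK-MEL-5, 13.8% to 18.1% in MALME-3M, 3.10% to 3.92% in the difference, 67.3% to 71.2% between untreated and 67.5% to 71.4% between treated lines. No paired analysis was possible because the labels give no replicate numbers; those used here were given in accession order and only name libraries. FEN1 had 9 to 23 gene counts per library, beside 423 to 889 transcript estimated counts.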
